A study of Homo sapiens with 2 samples.

Results

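The Krüppel-like factor (KLF) loci of B2B cells are described here as the ATAC-seq peak lists show them. The members are 10 genes, KLF2, KLF3, KLF4, KLF5, KLF6, KLF7, KLF9, KLF10, KLF11 and KLF13, of the 20033 protein-coding genes of the GENCODE 44 annotation that were searched the same way. Every peak from 100 kb upstream of the annotated start of a gene to 100 kb downstream of its end was read. Peaks of the 2 replicates that overlapped by at least 1 bp were merged into regions, which gave 67 regions at these loci of the 37661 regions of the genome. B2B is BEAS-2B, an immortalized, non-cancerous line of human bronchial epithelial cells, and it was profiled wild type and untreated, in 2 replicates that the series describes as biological. ATAC-seq uses the Tn5 transposase to insert adapters into accessible DNA, and a peak is a stretch where such fragments pile up. Other conditions are not analysed here. With a single group there was nothing to test, and every error given is the spread between the 2 replicates.

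KLF proteins bind GC-rich boxes and CACCC boxes through zinc fingers at their C-terminal ends, as the related SP proteins do. They fall into classes by the partners of their N-terminal parts. KLF2, KLF4, KLF5, KLF6 and KLF7 mainly activate genes and recruit acetyltransferases, KLF3 represses through the corepressor CtBP, and KLF9, KLF10, KLF11 and KLF13 bind the corepressor SIN3A. In airway and lung, KLF5 is known for its part in epithelial growth and repair, KLF4 for differentiation and growth arrest, and KLF2 for the quiet state of blood vessel endothelium.

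The value of a peak is its fold enrichment, the number of fragments at the summit over the local background as MACS2 gives it, a linear ratio. The lists used hold 28735 peaks for replicate 1 and 36162 for replicate 2, with a median fold enrichment of 6.06 and 6.57. The lowest fragment number of any listed summit was 16 in replicate 1 and 13 in replicate 2, and more were needed where the local background was high, so a site missing from a list was not called and is not thereby closed. The promoter of KRT18 was the only one of 12 epithelial marker promoters with a peak in each replicate. KRT8 had a peak in replicate 2 alone, and the other 10, among them CDH1, EPCAM and TP63, had none in either. A peak in each replicate was found for 9 of 12 mesenchymal markers, 0 of 4 blood markers and 1 of 3 endothelial markers (KDR). Of all protein-coding genes, 52.2% had such a promoter peak. The label of a bronchial epithelial line is therefore kept as a label, and the part of this marker pattern in the results below was not tested. Whether a region is open in fewer cells or less often in each cell cannot be told apart in such bulk data.

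The sequences on which the results turn are printed first, from the hg38 plus strand over 100 bp to either side of a summit, with positions counted from 1. The KLF2 promoter window is cut at the base before the TSS. Negative distances lie upstream of the transcription start site (TSS) of the canonical transcript, in the direction of transcription. The promoters of KLF2, KLF6 and KLF7 are shown because they share a motif arrangement, and that of KLF5 because it had the highest fold enrichment of the 10 promoters. Capitals mark matches to the GC box (GGGCGG, read as CCGCCC on the other strand) and to the MEF2 site, an AT-rich motif that MEF2 proteins bind. The KLF2 window is chr19:16324627-16324825, that of KLF6 is chr10:3785453-3785653, that of KLF7 is chr2:207166188-207166388 and that of KLF5 is chr13:73058767-73058967.
KLF2 promoter: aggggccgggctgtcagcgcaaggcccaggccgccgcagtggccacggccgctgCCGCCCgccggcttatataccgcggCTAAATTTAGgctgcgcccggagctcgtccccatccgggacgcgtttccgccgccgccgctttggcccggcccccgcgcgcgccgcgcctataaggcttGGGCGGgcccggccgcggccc
KLF6 promoter: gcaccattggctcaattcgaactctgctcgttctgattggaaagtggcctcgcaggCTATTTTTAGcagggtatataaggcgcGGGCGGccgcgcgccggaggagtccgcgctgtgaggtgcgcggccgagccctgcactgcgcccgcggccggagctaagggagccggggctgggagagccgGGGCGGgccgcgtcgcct
KLF7 promoter: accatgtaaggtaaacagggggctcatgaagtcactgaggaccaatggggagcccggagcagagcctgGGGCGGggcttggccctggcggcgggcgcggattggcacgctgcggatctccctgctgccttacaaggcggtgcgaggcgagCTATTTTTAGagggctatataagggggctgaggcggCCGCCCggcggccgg
KLF5 promoter: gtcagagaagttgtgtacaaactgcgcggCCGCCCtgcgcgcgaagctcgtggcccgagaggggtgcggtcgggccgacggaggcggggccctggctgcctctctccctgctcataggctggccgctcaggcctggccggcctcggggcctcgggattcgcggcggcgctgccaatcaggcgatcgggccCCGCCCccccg

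The distal windows are shown for the AP-1 and TEAD matches they hold. AP-1 is the dimer of FOS and JUN proteins, searched as TGACTCA or TGAGTCA, and TEAD proteins are the DNA-binding partners of YAP, searched as GGAATG, each on both strands. Capitals mark these matches. The windows are chr2:207239368-207239568 and chr2:207258630-207258830 upstream of KLF7, chr10:3852371-3852571 and chr10:3763303-3763503 on either side of KLF6, chr19:16279242-16279442 upstream of KLF2, and chr9:107504922-107505122 upstream of KLF4. The window chr4:38753040-38753240 past the end of KLF3 belongs to one of the strongest distal regions and holds none of these spellings, although it has 1 match to the looser AP-1 spelling TGANTCA, which 40.2% of all distal regions held.
KLF7 at −73.5 kb: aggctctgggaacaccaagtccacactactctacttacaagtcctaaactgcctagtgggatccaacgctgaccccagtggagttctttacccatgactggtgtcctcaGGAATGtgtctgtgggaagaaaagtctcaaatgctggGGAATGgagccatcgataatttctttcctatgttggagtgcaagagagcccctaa
KLF7 at −92.8 kb: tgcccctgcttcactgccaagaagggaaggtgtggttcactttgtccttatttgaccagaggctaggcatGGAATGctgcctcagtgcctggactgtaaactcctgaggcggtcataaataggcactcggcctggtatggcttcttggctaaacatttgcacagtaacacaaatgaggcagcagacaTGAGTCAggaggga
KLF6 at −67.3 kb: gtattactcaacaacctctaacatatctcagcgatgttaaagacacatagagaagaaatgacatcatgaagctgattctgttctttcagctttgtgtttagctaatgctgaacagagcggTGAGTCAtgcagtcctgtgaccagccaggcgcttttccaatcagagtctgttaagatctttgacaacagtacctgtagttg
KLF6 at 21.8 kb: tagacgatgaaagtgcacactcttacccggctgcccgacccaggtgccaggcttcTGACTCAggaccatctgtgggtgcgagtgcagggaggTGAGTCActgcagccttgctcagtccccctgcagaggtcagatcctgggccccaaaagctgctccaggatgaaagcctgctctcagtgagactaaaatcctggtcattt
KLF2 at −45.5 kb: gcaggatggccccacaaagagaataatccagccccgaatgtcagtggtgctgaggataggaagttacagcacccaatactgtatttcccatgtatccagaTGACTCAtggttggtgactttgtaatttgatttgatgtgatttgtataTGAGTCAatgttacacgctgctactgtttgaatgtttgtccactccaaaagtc
KLF4 at −15.3 kb: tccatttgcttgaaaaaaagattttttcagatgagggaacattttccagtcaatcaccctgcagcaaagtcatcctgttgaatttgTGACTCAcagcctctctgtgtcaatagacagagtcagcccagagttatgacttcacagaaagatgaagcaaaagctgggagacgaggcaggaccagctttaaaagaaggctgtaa
KLF3 at 88.9 kb: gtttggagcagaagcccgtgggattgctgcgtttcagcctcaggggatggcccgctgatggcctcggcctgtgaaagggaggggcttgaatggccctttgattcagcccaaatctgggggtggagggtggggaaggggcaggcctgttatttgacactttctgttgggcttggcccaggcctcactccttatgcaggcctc

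All 10 KLF genes had a peak within 1 kb of the TSS in replicate 1 and in replicate 2. Of all protein-coding genes, 52.2% did. The promoters differed in strength, and KLF5, KLF4, KLF13 and KLF7 were above the median of genes with a promoter peak in both replicates, which was 8.92, whereas the other 6 were below it. As a set the KLF promoters were close to promoters in general. Their median was 8.20 in replicate 1 and 8.78 in replicate 2, on average 8.49 ± 0.405 (SD, n = 2), against 8.52 ± 0.771 (SD, n = 2) over all genes with a promoter peak. The latter took in genes with a peak in only 1 replicate, 10652 genes in replicate 1 and 11609 in replicate 2. The genes with a peak in both replicates, as all members had, stood higher. The median of their means was the 8.92 above, with a middle range from 6.58 to 12.1. In order of their means the members ran KLF5, KLF4, KLF13, KLF7, KLF11, KLF3, KLF6, KLF9, KLF2 and KLF10. Of the neighbours in this order only KLF5 and KLF4 had values that did not overlap between the replicates. The order is one of fold enrichment over the local background, and an order by fragments would differ. KLF10, last here, had 76 and 66 fragments at its peak at −150 bp, whereas KLF2 had 29 and 33.

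**Figure D1:**
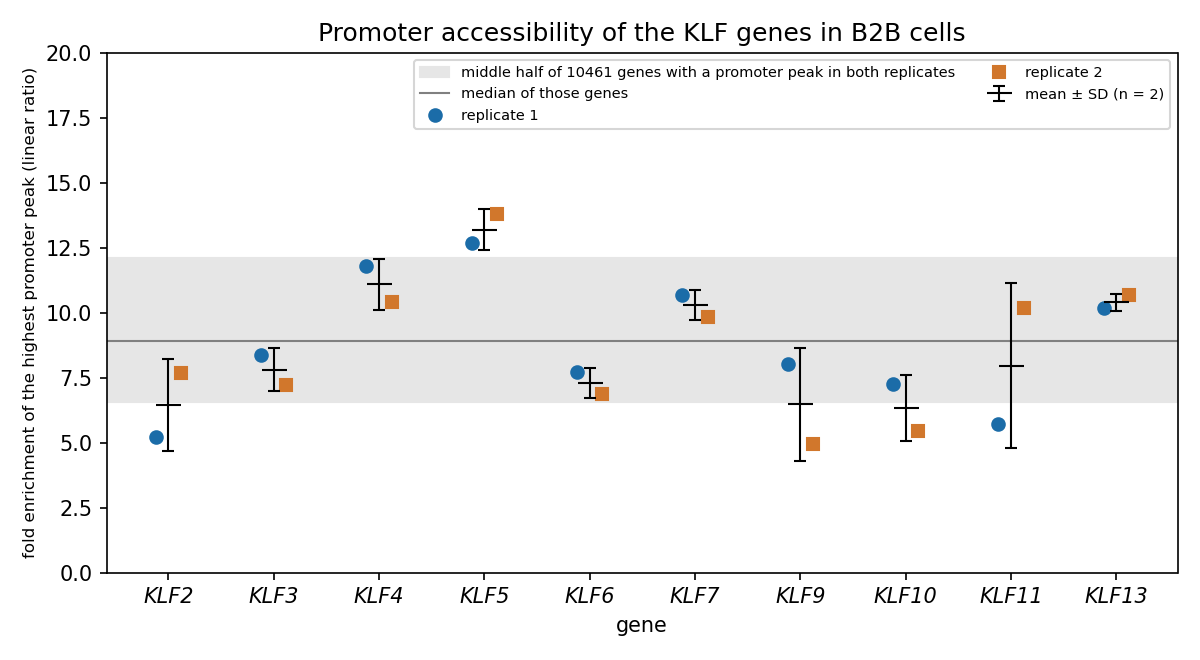
Fold enrichment of the highest promoter peak (y axis, linear ratio) of each KLF gene (x axis) in replicate 1 (circles) and replicate 2 (squares), with the mean and SD of the 2 replicates, over the middle range of the 10461 genes with a promoter peak in both replicates. KLF5 stands highest at 12.7 and 13.8, and KLF9 and KLF11 have the widest spread, in opposite directions.

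Among the activator-type members, KLF5 had the highest promoter value. The gene, which supports proliferation of basal and other epithelial progenitors, is on chromosome 13, plus strand, at 73054976 to 73077541 (hg38, ENSG00000102554.14), with the TSS of its canonical transcript of 4 exons at 73059005. Its promoter peak reached 12.7 in replicate 1 and 13.8 in replicate 2, on 114 and 124 fragments, a mean of 13.2 ± 0.801 (SD, n = 2). This mean exceeded those of 81.4% of the genes with a promoter peak, and the region was 1060 bp wide, wider than 89.6% of promoter regions. The printed KLF5 window, with its summit at −138 bp, holds a GC box near either end.

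KLF4, one of the factors used to reprogramme somatic cells to pluripotency, is on chromosome 9, minus strand, at 107484852 to 107490482 (ENSG00000136826.15; TSS at 107489769, 5 exons). Its promoter gave 11.8 in replicate 1 and 10.4 in replicate 2, a mean of 11.1 ± 0.980 (SD, n = 2), next below KLF5. KLF7, which is known for its role in the development of sensory neurons, is on chromosome 2, minus strand, at 207074137 to 207173856 (ENSG00000118263.16; TSS at 207165948, 4 exons), and its promoter gave 10.7 and 9.85 on 116 fragments in each replicate, a mean of 10.3 ± 0.568 (SD, n = 2). The KLF7 region was 1205 bp wide, wider than 95.1% of promoter regions, and its surroundings were poorer in CpG dinucleotides than those of most members, with 52 within 500 bp of the TSS against a median of 80 for genes with a promoter peak.

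KLF6, a broadly made early-response factor, is on chromosome 10, minus strand, at 3775996 to 3785281 (ENSG00000067082.15; TSS at 3785209, 4 exons). Its promoter gave 7.71 in replicate 1 and 6.88 in replicate 2, a mean of 7.30 ± 0.592 (SD, n = 2), on 44 and 37 fragments. KLF2, the factor of quiescent endothelium and naive lymphocytes, is on chromosome 19, plus strand, at 16324826 to 16328685 (ENSG00000127528.6; TSS at 16324826, 3 exons). Its promoter gave 5.20 in replicate 1 and 7.70 in replicate 2, on 29 and 33 fragments, a mean of 6.45 ± 1.77 (SD, n = 2), and was above that of only 23.6% of genes with a promoter peak. KLF2 had 129 CpG dinucleotides within 500 bp of the TSS, more than 96.0% of genes, and a relation between CpG count and fold enrichment was not tested. The KLF2 region, 444 bp wide, was the narrowest promoter region of the 10.

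KLF3, the CtBP-dependent repressor, is on chromosome 4, plus strand, at 38664197 to 38701517 (ENSG00000109787.13; TSS at 38664199, 6 exons). Its promoter gave 8.39 in replicate 1 and 7.22 in replicate 2, a mean of 7.81 ± 0.831 (SD, n = 2). The region was 1050 bp wide, and its summit, at −216 bp, lay in an intron of the antisense transcript KLF3-AS1, so a KLF3 opening and a KLF3-AS1 opening cannot be told apart in these lists.

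Of the SIN3A-binding members, KLF13 had the strongest promoter and KLF9 and KLF11 the least even ones. KLF13, a factor known from activated T cells, is on chromosome 15, plus strand, at 31326835 to 31435665 (ENSG00000169926.11; TSS at 31326835, 2 exons). Its promoter gave 10.2 and 10.7, a mean of 10.4 ± 0.319 (SD, n = 2), the smallest spread of the 10, over a region of 1388 bp, wider than 98.5% of promoter regions. KLF11, a TGF-β-induced repressor, is on chromosome 2, plus strand, at 10042849 to 10054836 (ENSG00000172059.11; TSS at 10043550, 4 exons). Its promoter gave 5.72 in replicate 1 and 10.2 in replicate 2, a mean of 7.96 ± 3.17 (SD, n = 2). The ratio of replicate 2 to replicate 1, 1.78, was above that of 96.2% of genes.

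KLF9, a glucocorticoid-induced factor, was instead higher in replicate 1. It is on chromosome 9, minus strand, at 70384604 to 70414657 (ENSG00000119138.5; TSS at 70414657, 2 exons). Its promoter gave 8.02 in replicate 1 and 4.94 in replicate 2, a mean of 6.48 ± 2.17 (SD, n = 2). Its ratio of 0.617 was lower than that of nearly all genes, at the 0.158 percentile. That ratio is of fold enrichment, on 79 and 64 fragments, and the part of the local background in it was not tested. Over genes with a promoter peak in both replicates the median ratio was 1.14, with a middle range from 0.981 to 1.35. KLF3, KLF4, KLF6, KLF7, KLF9 and KLF10, 6 of the 10 members, were lower in replicate 2, which was the case for 28.5% of the genes. The KLF9 promoter differed from the other members in its sequence too. It had 22 CpG dinucleotides within 500 bp of the TSS, fewer than in any other member and below the lower quartile of 30 over all genes, and a GC content of 41.3%, against 57.5% to 78.4% in the others. The strongest KLF9 promoter peak lay not at the TSS but 584 bp inside the gene, in an exon, and a second region, with 3.35 and 3.75, followed at 1.03 kb.

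KLF10, the TGF-β-inducible early gene, had 2 shared regions near its start, with 6.06 in replicate 1 and 5.45 in replicate 2 at −150 bp, and with 7.25 and 6.04 at 1.77 kb, in an intron. The second region reached into the window of 1 kb in replicate 1 alone, so the promoter values of KLF10, 7.25 and 5.45, a mean of 6.35 ± 1.27 (SD, n = 2), rest on different peaks. With a promoter window of 500 bp the mean was 5.76. Replicate 2 had a further peak of 3.74 at −0.701 kb. KLF10 is on chromosome 8, minus strand, at 102648784 to 102655725 (ENSG00000155090.15; TSS at 102655725, 4 exons).

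At 8 of the 10 members the promoter summit lay upstream of the TSS, which 76.1% of promoter regions did. The exceptions were KLF9 and KLF11, the latter at 19 bp. At KLF4, KLF5 and KLF7 the summit lay upstream of the canonical TSS but still within the annotated gene, outside its canonical transcript. The upstream summits lay between −99 bp at KLF2 and −344 bp at KLF6, and 6 of them, at KLF3, KLF4, KLF6, KLF7, KLF10 and KLF13, lay farther upstream than the lower quartile of all promoter regions, −140 bp. Noncoding transcripts start within 1 kb of the regions at KLF2 (KLF2-DT), KLF3 (KLF3-AS1), KLF4, KLF6, KLF7 (MYOSLID and MIR7845) and KLF10, and the lists do not say to which start a region belongs.

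The GC box was found within 100 bp of the summit at 9 of 10 KLF promoter regions, or 90.0% (95% Wilson interval 59.6 to 98.2), and in 71.8% of all 9287 promoter regions. KLF9 was the member without it. The CACCC box, searched as CCACACCC or CCACGCCC and the other kind of site that KLF proteins bind, was found at 0 of 10 KLF promoter summits and in 8.40% of all promoter regions. AP-1, TEAD, the cyclic AMP response element TGACGTCA and the CArG box were also found at 0 of 10, each motif being present in 2.39%, 6.01%, 2.69% and 0.603% of all promoter regions. The interval for a count of 0 of 10 reaches 27.8%, above each of these shares. Intervals cover counting error only, and a match of letters is not a binding site.

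The MEF2 site stood out in this search around the summits. It was found at the summits of KLF2, KLF6 and KLF7, 3 of 10 members or 30.0% (95% Wilson interval 10.8 to 60.3), whereas 22 of 9287 promoter regions, or 0.237%, held it. It did not stand out from 250 bp upstream to 50 bp downstream of the TSS. There only KLF2 held it, 1 of 10 members (95% Wilson interval 1.79 to 40.4%), against 401 of 20033 genes, a share inside that interval. The matches of KLF6 and KLF7, at −300 and −390 bp, lie outside that window. When the printed windows were read, the MEF2 match at each of the KLF2, KLF6 and KLF7 summits was seen to be followed closely by a TATA sequence, TATATAA. All promoter windows were then searched for a MEF2 match with TATATAA at most 10 bp after it on the same strand. The sequence TATATAA alone was found in 44 of the 9287 windows. The pair was found in 3 windows, or 0.0323%, and these were the windows of KLF2, KLF6 and KLF7. Because the pair was looked for after these sequences had been read, the count is a description and no test. The pairs are printed in the direction in which the TATA sequence reads, with both motifs in capitals and the spacer in lower case. They lie at chr19:16324693-16324715 on the minus strand for KLF2, at chr10:3785509-3785530 on the plus strand for KLF6 and at chr2:207166338-207166359 on the plus strand for KLF7.
KLF2 pair: CTAAATTTAGccgcggTATATAA
KLF6 pair: CTATTTTTAGcagggTATATAA
KLF7 pair: CTATTTTTAGagggcTATATAA

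The MEF2 matches of KLF6 and KLF7 were identical over their 10 bases, with spacers of 5 bp, and that of KLF2 had a spacer of 6 bp. All 3 pairs lay on the strand opposite to that of the KLF gene, and so read away from its canonical TSS. The KLF7 pair still lies within the annotated gene, which reaches 207173856. The first base of the TATA sequence lay 27 bp before an annotated start of the lncRNA ENSG00000288755 at KLF6. At KLF2 it lay 185 bp before that of the divergent lncRNA KLF2-DT, and at KLF7 47 bp before that of MIR7845. MIR7845 is a microRNA record, and no lncRNA start was found in the stretch searched at KLF7, which ran only past the TATA sequence. The 47 bp is therefore not comparable with the lncRNA distances. The lncRNA MYOSLID has a start within 1 kb of the KLF7 promoter region, whose summit lies in a MYOSLID intron. From the KLF TSS the MEF2 matches began at −111 bp for KLF2, −300 bp for KLF6 and −390 bp for KLF7. With the summits of replicate 2 alone the match at KLF6 lay outside the window and 2 members were counted, and with those of replicate 1 alone all 3 were. Windows of 50 bp to either side gave 2 members, KLF2 and KLF6, and windows of 200 bp gave 3, with 0.151% and 0.883% of all promoter regions.

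Over the whole 1 kb to either side of the TSS, with or without a peak, the pair was found at 59 of 20033 genes, or 0.295%, and the MEF2 match by itself at 19.8%. Within that span KLF4 had a MEF2 match at 467 bp and KLF9 had several, with TATATAA beginning at −18 bp, but neither had the pair, nor did the remaining members. Regions with a peak in a single replicate and further regions of a promoter were not searched for the pair at their summits. These lists hold no measure of MEF2 binding or of transcription from these TATA sequences.

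**Figure D2:**
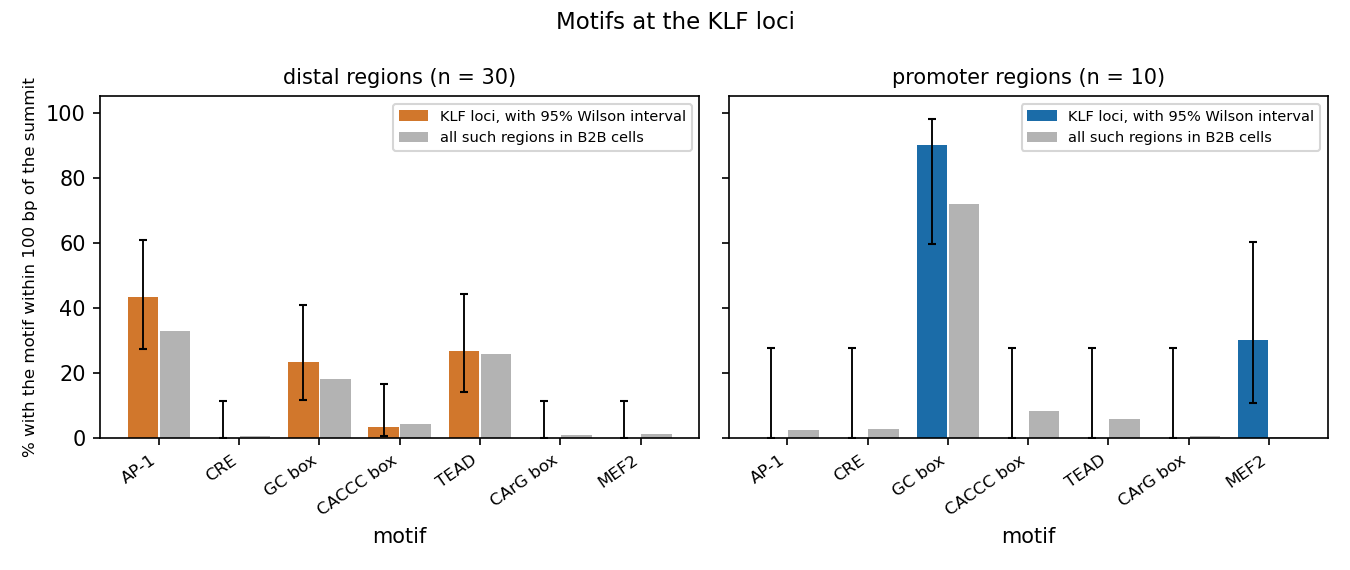
Share of regions with each motif within 100 bp of the summit (y axis, percent) for the 30 distal regions (left) and the 10 promoter regions (right) of the KLF loci, with 95% Wilson intervals, beside all such regions in B2B cells. The MEF2 site, at 30.0% against 0.237%, is the motif whose interval lies above its general share, and AP-1 at the distal regions, at 43.3%, has an interval that includes the general share of 32.9%.

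Beyond the promoters, the spans of the KLF genes held 30 distal regions with a peak in both replicates. Distal means farther than 1 kb from the canonical TSS of every protein-coding gene. Other annotated starts of coding genes were not excluded, so a distal region may lie at one of them. Of these, 16 lay upstream of the gene, 4 inside it and 10 downstream. KLF10 and KLF13 had 7 each and KLF7 had 5, while KLF5, the gene with the strongest promoter, had 0. For 27 of the 30 the nearest canonical TSS of a protein-coding gene was that of the KLF gene itself. This share was not calculated for other genes, and it depends on how many other coding starts lie close by. At least 1 distal region was found for 9 of the 10 members, against 68.3% of all genes, whose median was 1 and whose middle range was 0 to 3. The KLF genes lie in sparse neighbourhoods, with 7 of the 10 spans holding no TSS of another coding gene, whereas the span of the median gene held 4 coding TSSs.

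**Figure D3:**
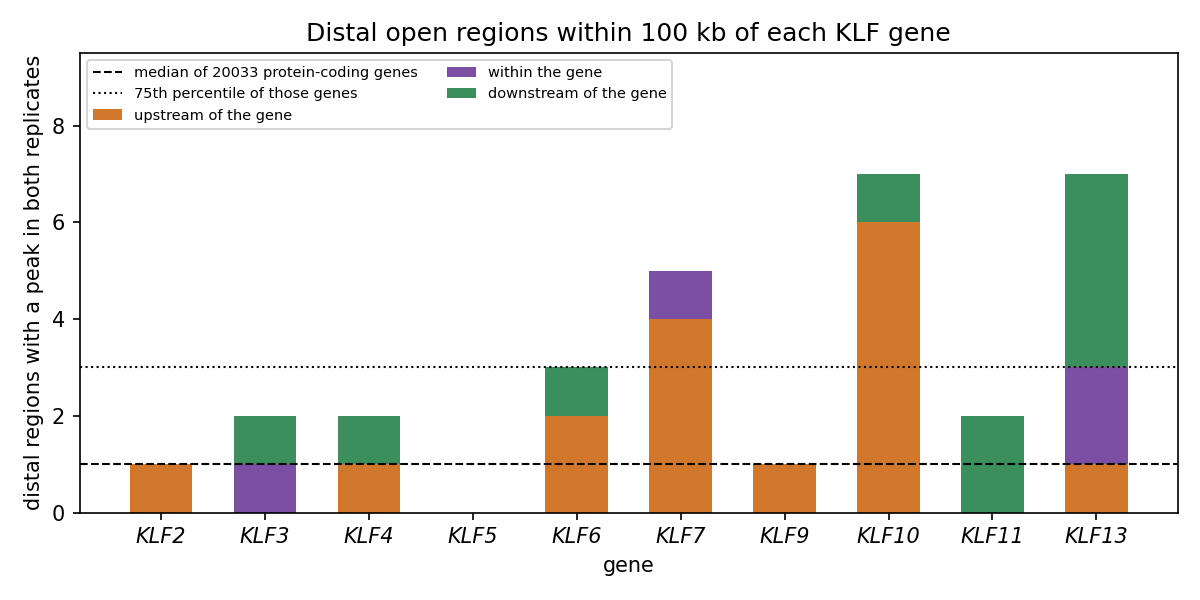
Number of distal regions with a peak in both replicates within 100 kb of each KLF gene (y axis), split by side of the gene, with the median (dashed) and the upper quartile (dotted) of 20033 protein-coding genes. KLF10 and KLF13 reach 7, KLF7 reaches 5, and KLF5 has 0.

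The count of distal regions depended on the replicate. With replicate 1 left out, so that a peak of replicate 2 sufficed, the 10 spans held 49 distal regions, and with replicate 2 left out 38. Without replicate 1, KLF2 had 4 distal regions instead of 1, KLF4 had 4 instead of 2, KLF5 had 2 instead of 0, KLF6 had 5 instead of 3 and KLF11 had 4 instead of 2, whereas KLF9 had 3 instead of 1 without replicate 2. Of the 22 regions of all kinds found in a single replicate, 18 were in replicate 2, and their median fold enrichment was 4.87, against 7.01 for the shared ones. Over all regions 82.1% of the single ones were in replicate 2. With 50 kb to either side of the genes instead of 100 kb, 17 distal regions were counted, 2 each at KLF10 and KLF7.

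**Figure D4:**
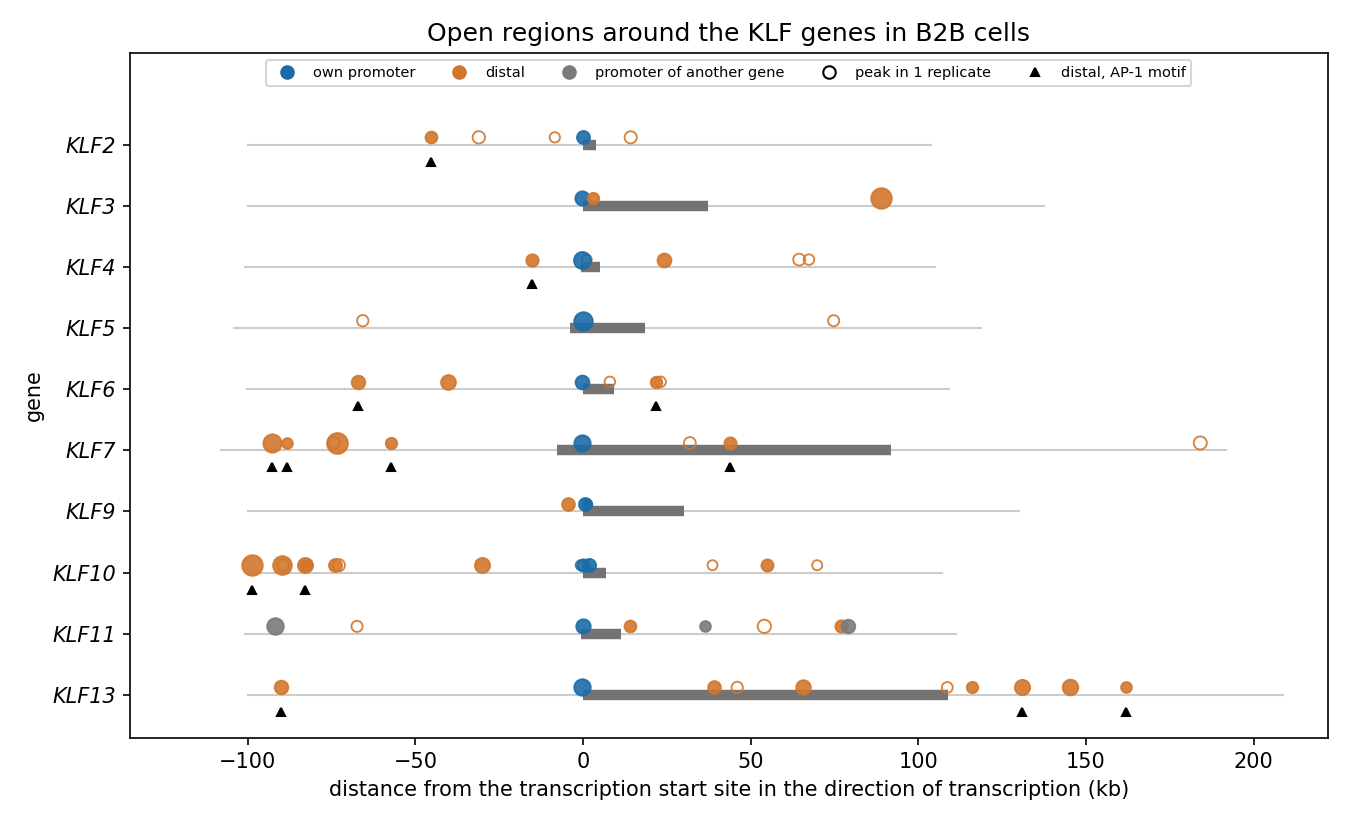
Map of the regions at the KLF loci by distance from the TSS in the direction of transcription (x axis, kb), with the gene as a thick bar, the searched span as a thin line, and the area of each circle proportional to the mean fold enrichment. Filled circles had a peak in both replicates, open ones in 1, and triangles mark distal regions with an AP-1 motif, which were found at 6 of the 10 loci.

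The KLF7 locus held the distal region with the highest mean of the 30, although in replicate 2 those of KLF10 at −98.6 kb and KLF3 at 88.9 kb were higher and the values of the 3 regions overlapped between replicates. Of its 5 distal regions 4 lay upstream. At −73.5 kb, in an intron of the lncRNA MYOSLID, a region of 665 bp (chr2:207239072-207239736) gave 17.7 in replicate 1 and 15.7 in replicate 2, a mean of 16.7 ± 1.42 (SD, n = 2), above 97.4% of all distal regions and above the KLF7 promoter itself. Its printed window holds 2 TEAD matches. The next, at −92.8 kb (chr2:207258237-207259020), gave 13.7 and 12.2, a mean of 12.9 ± 1.07 (SD, n = 2), and holds 1 AP-1 and 1 TEAD match. Weaker ones lay at −57.2 kb, with 5.02 and 4.98, at −88.1 kb, with 4.05 and 4.74, and in the intron at 43.9 kb, with 4.68 and 6.80. Each of these weaker ones has an AP-1 match, so 4 of the 5 distal regions of KLF7 do.

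At KLF6 the distal regions were of middling strength. The region at −40.2 kb (chr10:3825256-3825564) gave 7.1 in replicate 1 and 9.74 in replicate 2, a mean of 8.42 ± 1.87 (SD, n = 2), higher than the KLF6 promoter in replicate 2 and lower in replicate 1. The region at −67.3 kb (chr10:3852257-3852565) gave 5.54 and 8.61, and that at 21.8 kb past the TSS (chr10:3763273-3763467), in an exon of the lncRNA ENSG00000229672, gave 4.50 and 5.89. All 3 were higher in replicate 2, as were 77.9% of the shared distal regions of the genome and 19 of the 30 at the KLF loci. The regions at −67.3 kb and 21.8 kb carry AP-1 matches, 1 and 2 of them, printed above.

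KLF4 had a distal region on either side. That at −15.3 kb, with 1 AP-1 match, gave 6.41 and 5.44, a mean of 5.92 ± 0.688 (SD, n = 2). That at 24.0 kb, at the start of LINC01509, gave 7.80 and 7.02, a mean of 7.41 ± 0.547 (SD, n = 2), and both were weaker than the KLF4 promoter in either replicate. KLF2 had a single shared distal region, at −45.5 kb (chr19:16279288-16279534), which gave 5.37 and 5.44, a mean of 5.40 ± 0.0470 (SD, n = 2), on 30 and 23 fragments. It lies between genes and has 2 AP-1 matches, as the KLF6 region at 21.8 kb does, although its strength was above that of only 23.5% of distal regions.

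KLF5 stood apart, with no shared distal region in a span of 223 kb. Replicate 2 alone had a peak of 4.98 at −65.7 kb, on 21 fragments, in an intron of PIBF1, and one of 4.76 at 74.7 kb, on 20 fragments. Replicate 1 listed none at either place. Of all protein-coding genes, 31.7% had 0 shared distal regions, so the lack was not unusual for a gene, and regions farther than 100 kb away were not counted.

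KLF3 combined a plain promoter with a strong element past its end. The region at 88.9 kb (chr4:38752687-38753393), between genes, gave 15.4 in replicate 1 and 17.0 in replicate 2, a mean of 16.2 ± 1.11 (SD, n = 2), above 96.9% of distal regions. Its nearest coding TSS was that of TLR10, a Toll-like receptor gene, at 29.9 kb, so the assignment to KLF3 rests on the span alone. The intronic region of KLF3 at 3.05 kb gave 5.47 and 4.51 and has a TEAD match.

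KLF10 had 6 of its 7 distal regions upstream, 5 of them between −74.0 and −98.6 kb. The strongest, at −98.6 kb, gave 15.1 in replicate 1 and 17.3 in replicate 2, a mean of 16.2 ± 1.55 (SD, n = 2), and that at −89.9 kb gave 13.2 and 13.8, a mean of 13.5 ± 0.462 (SD, n = 2). In fold enrichment both exceeded the KLF10 promoter in each replicate. In fragments this did not hold for the region at −89.9 kb. It had 75 and 60, against 76 and 66 at the promoter region at −150 bp. The others gave 6.58 and 10.9 at −30.2 kb, 5.72 and 7.25 at −74.0 kb, 4.16 and 5.66 at −82.7 kb, 9.01 and 8.61 at −83.1 kb, and 5.89 and 5.44 at 54.8 kb, the last nearer to ODF1. AP-1 matches were found at −83.1 and −98.6 kb. Per length of span KLF10 had 3.38 distal regions per 100 kb, more than 99.0% of genes, with KLF13 next at 2.27.

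KLF13 had its 7 distal regions spread over both sides and the gene body. The strongest lay past the gene, at 145 kb, with 7.80 and 10.9, and at 131 kb, with 8.84 and 9.06, the latter with an AP-1 and a TEAD match. In the gene, the region at 65.5 kb gave 8.84 and 7.48 and was the only one of the 30 distal regions with a CACCC box, which 4.42% of all distal regions held. The other KLF13 regions gave 6.41 and 7.93 at −90.2 kb, 6.06 and 6.34 at 39.1 kb, 4.68 and 5.21 at 116 kb, and 3.29 and 5.66 at 162 kb, where the region lies in an intron of OTUD7A. None of the 7 exceeded the KLF13 promoter in both replicates.

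KLF11 differs in that its span holds 3 promoters of other genes with a peak in both replicates. The promoter of GRHL1, a transcription factor of epithelia, gave 8.84 and 12.5, that of RRM2, the ribonucleotide reductase subunit of dividing cells, gave 7.62 and 6.40, and that of CYS1 gave 3.47 and 5.44. Its distal regions were weak, with 4.68 and 6.12 at 14.0 kb, in an exon of CYS1, and 5.89 and 5.73 at 76.8 kb, which is 2.36 kb from the TSS of RRM2. KLF9 had 1 distal region, at −4.40 kb (chr9:70418855-70421076), which gave 6.76 in replicate 1 and 5.95 in replicate 2. That region was 2222 bp wide, the widest of the 30, with 72.6% GC at its summit and an lncRNA start, ENSG00000289159, within 1 kb. The KLF9 region inside the gene at 1.03 kb was similarly GC-rich, with 73.1%.

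**Figure D5:**
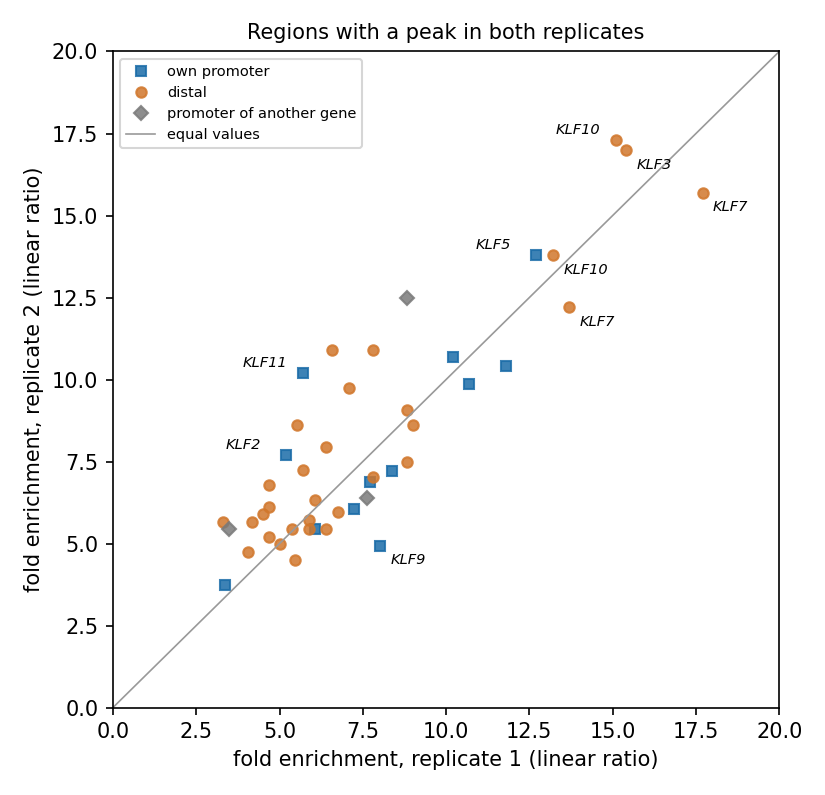
Fold enrichment in replicate 1 (x axis) and replicate 2 (y axis), both linear ratios, of the 45 regions of the KLF loci with a peak in both replicates, with the line of equal values. The named points are the 5 distal regions above 12 and the promoter of KLF5, in the upper right, and the promoters of KLF2, KLF9 and KLF11, which lie off the line.

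Over the 30 distal regions, the median fold enrichment was 6.42, and that of all 14830 distal regions was 6.74. A value above 10 in both replicates was reached by 5 of the 30, those of KLF3, KLF7 and KLF10 named above, and by 12.3% of all distal regions. The median width was 349 bp against 332 bp, and the median GC content around the summit was 55.0% against 51.2%. As a group the distal regions of the KLF loci were thus close to distal regions in general on these measures.

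An AP-1 match lay within 100 bp of the summit at 13 of the 30 distal regions, or 43.3% (95% Wilson interval 27.4 to 60.8), and at 32.9% of all distal regions, so the share was near the background. The matches were found at KLF2, KLF4, KLF6, KLF7, KLF10 and KLF13. The median fold enrichment was 5.92 with a match and 6.48 without. TEAD matches were found at 8 of the 30, or 26.7%, against 25.8% in general, and GC boxes at 7, or 23.3%, against 18.3%. The distal regions of the KLF loci had no match to the cyclic AMP response element, the CArG box or the MEF2 site, which 0.735%, 1.05% and 1.40% of all distal regions held.

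Of the other genes of the KLF and SP families, 9 of 17 had a peak at the promoter in each replicate, near the 52.2% of all protein-coding genes. Those without a peak in either replicate were KLF1, the erythroid factor, KLF8, KLF14, KLF17, KLF18, SP7, the osteoblast factor, SP8 and SP9. The remaining KLF genes with a peak, named after their values had been seen, were KLF12, with 7.07 and 6.38, KLF15, with 4.85 and 7.25, and KLF16, with 6.93 and 7.89, so none of them reached KLF5, KLF4, KLF7 or KLF13 in either replicate. KLF12 shares the CtBP partner with KLF3, and KLF8, of the same class, had no peak. Among the corepressors, 4 of 6 had a peak at the promoter in each replicate, and CTBP2 and SIN3B had none.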

How the data were processed

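The data were the deposited ATAC-seq peak lists of B2B cells, 1 for each of 2 replicates, grouped by their labels. Reads were aligned to hg38 by the authors with Bowtie2 2.4.4, handled with SAMtools 1.13, freed of duplicates and passed to MACS2 2.2.7.1. How Tn5 cut positions were shifted and which q limit was applied are not given in the sources used here. The deposited fold enrichment is a linear ratio, and the deposited −log10 p and −log10 q are those of MACS2. The peaks used were those of chromosomes 1 to 22, X and Y, and none ran past a chromosome end of the reference. Because the lists give no read totals, the fragment number of a summit was calculated back from its ratio and −log10 p, and came out whole within 0.01 for 99.8% and 99.9% of the peaks. Median summits had 35 and 30 fragments. PCR reads without molecular identifiers are not independent molecules.

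Promoters were 1 kb to either side of the canonical TSS in GENCODE 44, and for motifs the shared region with its summit nearest the TSS was used, at the summit of the stronger replicate. A percentile is the share of genes or regions below a value plus the tied ones at equal weight on both sides. Sequences came from hg38, and windows were cut or not printed where they overlapped untranslated parts of protein-coding transcripts. Overlap, motif search and fragments were tested on simulated data and recovered 1500 of 1500, 400 of 400 and 500 of 500. Python 3.11.15, numpy 2.4.6, pandas 2.3.3, scipy 1.17.1, pysam 0.24.0 and matplotlib 3.10.9 were used. The genes, lists and motifs were chosen with earlier results of these data known. Named were all members with their promoter regions and strongest distal regions, other coding genes of a span with a promoter peak in it, and the other KLF, SP and corepressor genes with or without a promoter peak, whichever were fewer. A549 data and promoter-capture Hi-C were not analysed here.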

Additional observations from a re-analysis of the deposited data

How the results depend on the processing

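Each choice was changed on its own: the threshold on q, the number of peaks, the overlap, the promoter window, the TSS, the span, the assignment of regions and the motif window and spelling, with each replicate left out in turn. Of 41 values for the main results 38 stayed within 1.5 times the count, the SD or the interval. With 1 replicate left out, a promoter strength or its median stays within the SD by arithmetic, so those values could not have moved. The distal regions at the KLF loci numbered 30, between 38 and 49 when each replicate was left out in turn, and 17 with a span of 50 kb, by the construction of those settings. The share of distal regions with AP-1 was 43.3% and became 26.7% with matches within 50 bp of the summit, where all distal regions stood at 22.5%. All 10 promoters were counted under every setting tried. Leaving out a replicate, widening the promoter window or taking any annotated TSS only loosens the call, so these settings could not lower the count. The count could have fallen only with the stricter threshold on q, with both lists cut to the same length or with the narrower promoter window. The MEF2 settings, all of them around the promoter summit, were added after the data were seen and gave 2 or 3 members. The window from 250 bp upstream to 50 bp downstream of the TSS, not among these settings, gave 1 member, KLF2. Of 150 values for single genes 135 kept within the spread or within 1.5 times the count, and 15 distal counts moved. The promoter of KLF11, at 7.96, became 10.2 without replicate 1 and 5.72 without replicate 2, and was still counted as kept. Promoter strengths and counts have no direction, so none could reverse. No paired analysis was possible because only 1 group was measured and no test was run. The number of fragments a peak needs depends on the local background, so absence from a list says only that a region was not called.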
